A study of Mus musculus with 3 samples.

Results

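Of the 3757 barcodes called as cells in a preparation of mouse long-term hematopoietic stem cells (HSCs), 444 carried a full complement of RNA but few open-chromatin fragments. These cells were selected on measured values. Each had at least 3000 unique molecular identifiers (UMIs, which count distinct captured RNA molecules) and at most 3000 ATAC fragments in peaks, whereas the 2498 comparator cells had at least 3000 UMIs and more than 3000 fragments in peaks. The limit of 3000 fragments is the one the study's quality filter set, so the 444 ATAC-poor cells are cells that this filter drops. The remaining 815 called cells had fewer than 3000 UMIs.

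The cells came from 1 preparation of bone marrow of wild-type, 8-week-old female C57BL/6 mice, enriched for c-Kit and sorted as CD150+CD48-CD34- cells within the LSK gate (lineage-negative, Sca-1-positive, c-Kit-positive). No treatment, transgene or second group was part of the deposited experiment, and the number of mice pooled was not stated. DOGMA-seq read the chromatin (ATAC), the RNA and antibody-derived tags of the same cells as 3 libraries. With 1 preparation there are no replicates: cells are not replicates of a condition, no test was made, and all intervals are 95% intervals that cover counting error only.

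ATAC-seq uses the transposase Tn5 to cut DNA where chromatin is open. A pair of cuts yields a fragment, and the fragments of a nucleus gather at promoters and enhancers. Fragments shorter than a nucleosome come from nucleosome-free DNA and longer ones span 1 or more nucleosomes. RNA read from the same droplet holds unspliced transcripts with introns, which are mostly nuclear, as well as spliced transcripts, so the intronic share reflects how much nuclear RNA a library holds. HSCs at rest keep open the loci of transcription factors such as *Mecom*, *Meis1* and *Hlf*, while the loci of mature blood lineages are largely closed.

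The ATAC-poor cells lay at the low end of a broad distribution of ATAC depth. Of the 2942 called cells with at least 3000 UMIs they made up 15.1% (13.8 to 16.4%, exact binomial interval). In bins of 1000 fragments in peaks there were 181 cells with up to 1000 fragments, 150 cells in the next bin and 113 cells with over 2000 and up to 3000. The following bins held 122 and 123 cells, and the number then rose to a maximum of 474 cells with over 8000 and up to 9000. The lowest count among neighboring bins therefore lay just under the limit, and cells became more frequent again toward 0. The ATAC-poor cells held 76 to 2981 fragments in peaks (median 1229) and 98 to 7216 nuclear fragments (median 1709), against a median of 11713 nuclear fragments in the comparator. These depths are what the cells were chosen by and are given as a description.

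**Figure D1:**
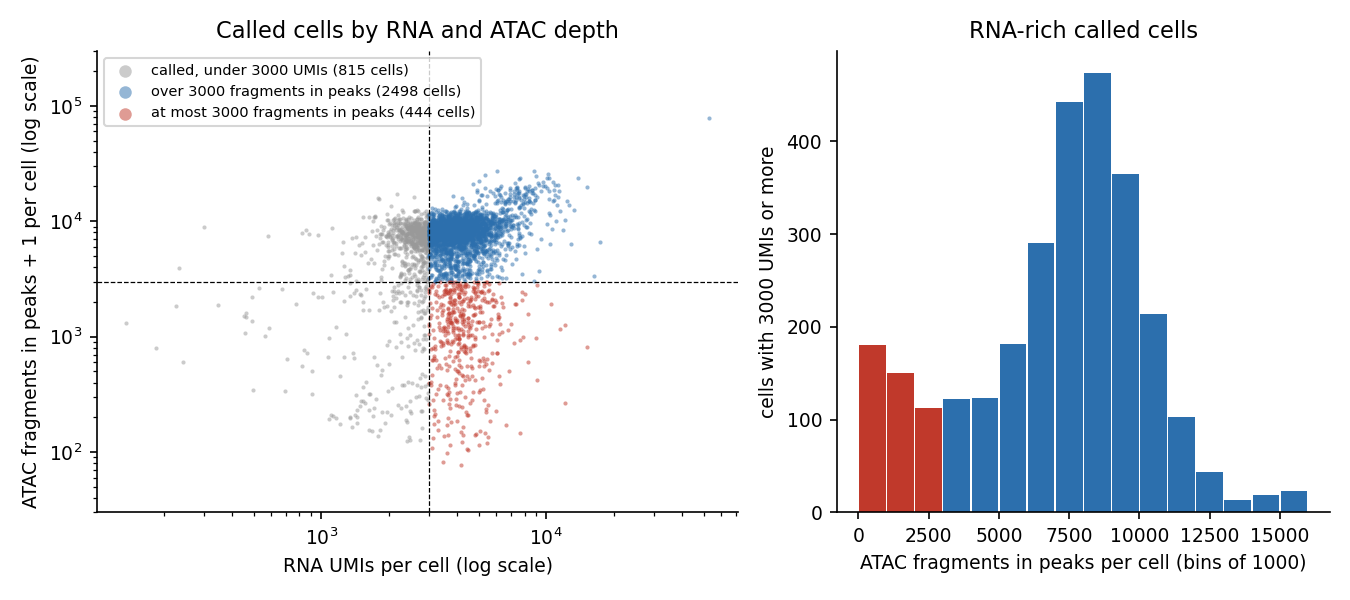
Left, ATAC fragments in peaks (plus 1) against RNA UMIs for each called cell, both on log scales, with dashed lines at the limits of 3000. Right, the number of cells with at least 3000 UMIs in bins of 1000 fragments in peaks up to 16000. The 444 ATAC-poor cells (red) lie within the UMI range of the comparator (blue), and the bins hold 181, 150 and 113 red cells before the count climbs to 474.

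The share of ATAC-poor cells had no steady trend with the amount of RNA. It was 11.7% (9.30 to 14.5%) of cells with 3000 or more but under 3500 UMIs, 16.1% (13.4 to 19.2%) from there to under 4000, 16.9% (14.6 to 19.4%) from 4000 to under 5000 and 11.5% (5.86 to 19.6%) with 8000 or more. Called cells below 3000 UMIs had a higher share, 25.2% (22.2 to 28.3%). Within the 444 cells, the number of nuclear fragments and the number of UMIs had a Spearman rho of 0.057 and a Pearson r of 0.029, and across the 2498 comparator cells rho was 0.28 and r was 0.63. Both measures entered the rule, the ATAC-poor cells cover a range of fragments cut short at the limit while the comparator's range is open above, and all cells share both libraries, so these correlations are a description and were not compared. Just inside the limit, 29 cells with 2753 to 2981 fragments in peaks had a median of 4141 UMIs, and just outside it 27 cells with 3003 to 3238 fragments had a median of 3772.

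The RNA of the ATAC-poor cells was close to that of the comparator in every composition column. The intronic share of UMIs was 48.8% in the pooled ATAC-poor cells and 48.3% in the comparator, a difference of 0.47 percentage points (0.40 to 0.55). That difference is small beside the spread between cells, for which the SD was 5.57 points in the ATAC-poor cells and 5.45 points in the comparator. Single ATAC-poor cells ran from 17.3 to 64.6%, with the middle of the cells between 45.7 and 52.2% (quartiles), and single comparator cells from 20.2 to 66.8%, with quartiles of 45.2 and 51.8%. The ranges overlap almost in full. The medians over cells, 48.9% and 48.7%, were closer still, at 0.18 points apart.

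The other RNA columns behaved alike. Intergenic reads made up 18.2% of confidently mapped reads in the ATAC-poor cells and 18.1% in the comparator. Exonic reads made up 35.8% and 36.2%, and antisense reads made up 37.8% and 37.6% of the intronic reads. Among raw RNA reads, 93.9% and 93.8% mapped to the genome. The ATAC-poor cells had a median of 4166.5 UMIs and 2128 genes, and the comparator 4130 UMIs and 2123 genes. When comparator cells were weighted to the same UMI bins of 500, the ATAC-poor cells had 1.69 fewer genes on average, against an SD of 423 genes between cells, and with bins of 250 UMIs they had 1.44 more. Sequencing effort per molecule was also similar, with a median of 8.18 RNA reads per UMI against 8.10. By contrast, the 205 called cells that were poor in both RNA and ATAC had an intronic share of 44.0% and an intergenic share of 19.6%, and the 610 called cells poor in RNA but not in ATAC had 46.7% and 17.4%. The RNA columns of the RNA-rich cells with and without much ATAC thus differed by fractions of a percentage point.

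**Figure D2:**
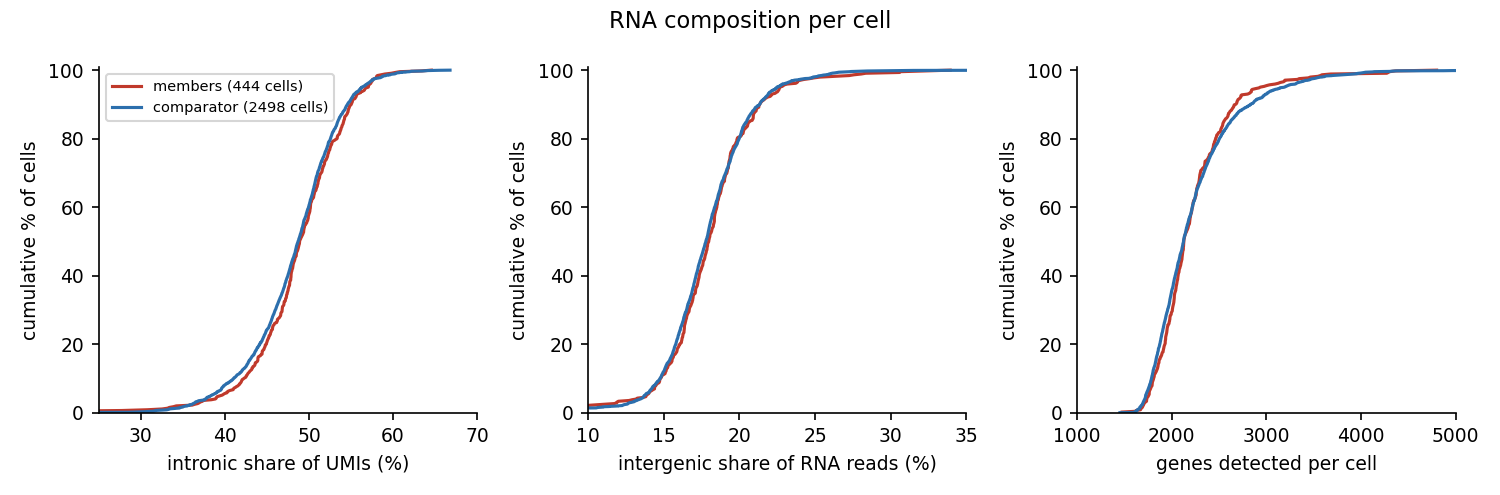
Cumulative percent of cells against the intronic share of UMIs, the intergenic share of confidently mapped RNA reads and the number of genes detected, for the 444 ATAC-poor cells (red, members) and the 2498 comparator cells (blue). The curves run close together, with medians of 48.9% and 48.7% for the intronic share and 2128 and 2123 for genes; a few cells lie beyond the plotted range.

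Mitochondrial DNA has no nucleosomes and is cut readily by Tn5, so intact mitochondria carried along with a nucleus add read pairs to the ATAC library. Mitochondrial read pairs were fewer in the ATAC-poor cells, at 0.840% (0.831 to 0.849%) of 4175703 read pairs against 1.19% of the comparator's. The difference of -0.351 points was -0.194 with at most 2000 fragments in peaks. The pooled share had no consistent order with ATAC depth, at 1.13, 0.992, 0.984 and 0.669% in the 4 ATAC-poor bins from the shallowest to the deepest and at 0.562 to 1.60% in the 6 comparator bins. The median over cells rose in most steps of depth, from 0.057% in the shallowest ATAC-poor bin to 0.303% in the deepest comparator bin. The pooled totals of both groups were dominated by a few cells. Cells above 5% made up 4.50% (2.77 to 6.87%) of the ATAC-poor cells and 4.92% (4.11 to 5.85%) of the comparator, and they held 64.8% and 65.8% of the mitochondrial pairs. Without them the shares were 0.310% and 0.435%, and the medians over all cells were 0.158% and 0.245%. The ATAC-poor cells had no mitochondrial pair at all in 27.0% of cells, against 6.61%, but at a median of 8433 read pairs per cell, against 58512.5 in the comparator, a count of 0 allows a larger true share. Barcodes not called as cells had 4.98%.

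Duplication was nearly equal in the groups. Duplicates made up 69.5% of read pairs in the ATAC-poor cells and 69.4% in the comparator, and a nuclear fragment rested on a mean of 4.45 and 4.50 read pairs. Unmapped pairs (2.16% and 2.22%) and chimeric pairs (0.272% and 0.252%) were also near each other.

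To compare the fragments themselves at equal depth, each comparator cell was cut down at random to the nuclear fragment number of 1 ATAC-poor cell, which left 4730278 comparator fragments to set beside 840805. At this depth the few fragments of the ATAC-poor cells were at least as focused on gene starts as those of the comparator. Of their fragments 41.8% (41.7 to 41.9%) fell within 1000 bp of the start of a protein-coding gene, against 40.8% (40.8 to 40.9%) of the thinned comparator, 0.97 points more (0.86 to 1.09). The difference was 1.63 points without thinning, 1.48 with at most 2000 fragments in peaks, 1.43 with at least 4000 UMIs and 1.94 without the cells with less than 50% of fragments in peaks. Per cell, the median promoter share was 43.2% with quartiles of 41.3 and 45.2%, against 41.1% with quartiles of 39.1 and 43.0%. The enrichment of cut sites at transcription start sites (TSS), measured as their density within 50 bp of a start over that 1900 to 2000 bp away, was 41.2 (40.2 to 42.2) against 40.1 (39.7 to 40.5), a difference of 1.09 whose 95% interval has a half-width of 1.06 and so just excludes 0.

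Barcodes not called as cells serve as a gauge of background fragments. There the promoter share was 23.1% and the TSS enrichment 24.4, well below the ATAC-poor cells on both measures. The 205 called cells poor in both RNA and ATAC lay between when pooled, at 33.5% and 35.2. In that group 39 cells with less than 50% of their fragments in peaks held 38.7% of the fragments, and the other 166 cells had a promoter share of 41.2% and a TSS enrichment of 41.8, near the ATAC-poor cells. The proportion of fragments in peaks was 70.3% in the ATAC-poor cells, 68.8% in the comparator and 40.8% in barcodes not called, but as fragments in peaks entered the rule these shares are a description.

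Fragment lengths differed slightly. The ATAC-poor cells had more fragments shorter than the DNA wrapped on 1 nucleosome, 47.3% against 45.8% after thinning (difference 1.49 points, 1.37 to 1.60), and fewer of 1 to 2 nucleosome lengths, 31.3% against 32.2%. The nucleosome signal, which is the number of the latter over that of the former, was 0.662 (0.659 to 0.665) against 0.702 (0.700 to 0.703). The median fragment was 158 bp long against 161 bp. Per cell the nucleosome signal had quartiles of 0.601 and 0.695 in the ATAC-poor cells and of 0.645 and 0.763 in the thinned comparator, so most cells of either group lay within the range of the other. The GC content averaged 56.9% against 56.7%.

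**Figure D3:**
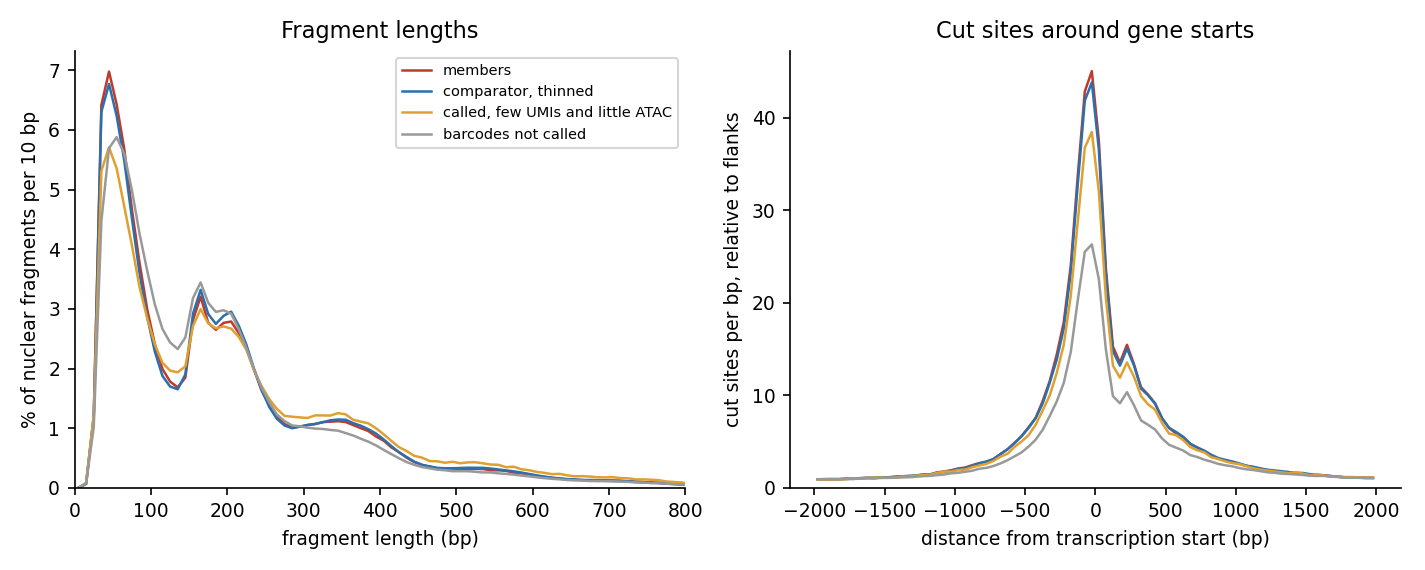
Left, percent of nuclear fragments in each 10 bp of length. Right, cut sites per bp around the starts of protein-coding genes, in steps of 50 bp and relative to the flanks 1900 to 2000 bp away. The ATAC-poor cells (red, members) and the thinned comparator (blue) nearly coincide, whereas barcodes not called (gray) have a TSS enrichment of 24.4 against 41.2.

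Promoter share and nucleosome signal also varied with ATAC depth within each group, though not in every step. The pooled promoter share was 43.3% (42.7 to 43.8%) in the 90 cells with under 500 fragments in peaks and 41.2% (41.1 to 41.4%) in the 113 cells with over 2000 and up to 3000. It was 42.0% (41.8 to 42.1%) just above the limit, in the 122 cells with over 3000 and up to 4000 fragments, and 38.0% in the 107 cells with more than 15000. The nucleosome signal was 0.629 (0.614 to 0.645), 0.673 (0.668 to 0.678), 0.672 (0.668 to 0.676) and 0.727 in the same 4 bins. Between the bins on either side of the limit the promoter share was higher above it, opposite to the difference between the groups, and the intervals of the nucleosome signal overlapped. In the narrower windows of 29 and 27 cells at the limit the order was that of the groups, with a promoter share of 41.9% just inside and 40.5% just outside and a nucleosome signal of 0.669 and 0.706. Among deeper comparator cells the nucleosome signal fell from 0.714 in the 732 cells of the third comparator bin to 0.712 and 0.707 in the next bins, of 839 and 393 cells. TSS enrichment lay between 40.5 and 41.8 in the 5 bins after the shallowest one and was 37.3 in the deepest. The intronic share of UMIs had no order among the ATAC-poor bins, at 49.5, 47.4, 49.1 and 48.8% from the lowest depth to the highest. In the comparator bins it was 49.5, 49.9, 49.2, 47.9, 46.9 and 46.6% in the same order. In the narrower windows at the limit it was 49.1% just inside and 49.6% just outside. Both beside-limit comparisons were thus opposite to the difference between the groups.

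**Figure D4:**
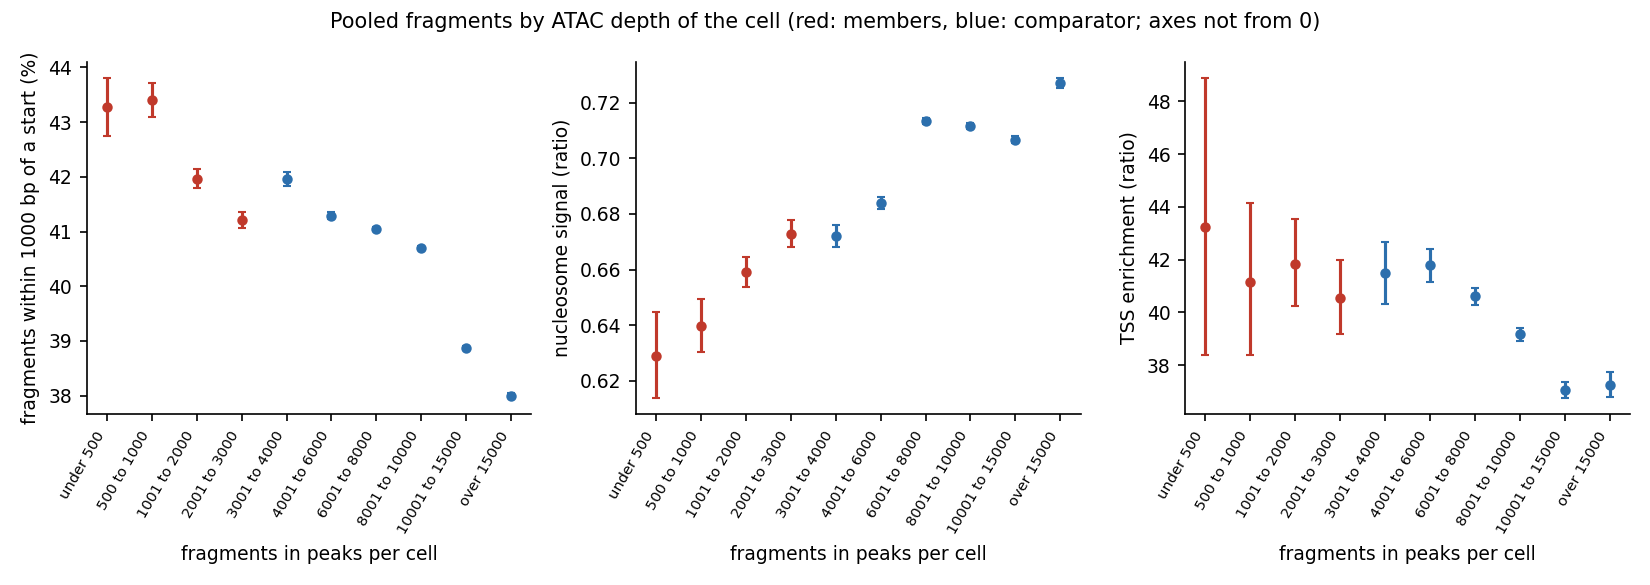
Promoter share, nucleosome signal and TSS enrichment of pooled, unthinned fragments in bins of fragments in peaks per cell, for the ATAC-poor cells (red, 4 bins) and the comparator (blue, 6 bins), with 95% counting intervals; the vertical axes do not start at 0. From the shallowest bin to the deepest, promoter share goes from 43.3% to 38.0% and nucleosome signal from 0.629 to 0.727, with exceptions to this order in between.

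A small number of ATAC-poor cells did not share the focused pattern. In 9 of the 444 cells (2.03%, 0.931 to 3.81%) less than 50% of fragments lay in peaks, at 19.97 to 44.9%, and no ATAC-poor cell lay between 50 and 55%. They were selected on a share that entered the rule, and since a diffuse cell needs more fragments to reach 3000 in peaks, the limit takes in such cells at up to 7216 fragments. They had a median of 5709 nuclear fragments against 1654 in the other 435, and held 5.24% of all fragments of the ATAC-poor cells. Their promoter share was 22.0% and their TSS enrichment 22.9, near the values of barcodes not called, against 42.9% and 42.0 in the rest. On other measures they differed from those barcodes, with 6.60% of fragments shared with another barcode against 17.4% and a nucleosome signal of 0.870 against 0.696. Their intronic share of UMIs was 45.4% against 48.8%. Such cells made up 23 of the 2498 comparator cells (0.921%, 0.585 to 1.38%) and 39 of the 205 cells poor in both RNA and ATAC (19.02%, 13.9 to 25.1%). In these other groups the interval between 50 and 55% was not empty, with 6 comparator cells and 8 cells poor in both. Without the cells under 50% in both groups, the difference in promoter share between the ATAC-poor cells and the thinned comparator was 1.94 points instead of 0.97.

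Fragments can be shared between barcodes when a droplet holds more than 1 barcode or a bead sequence is misread, and frequent cut positions also recur by themselves. In the ATAC-poor cells 17.4% of fragments had the same start and end as a fragment of another barcode, against 16.9% in the thinned comparator and 17.4% in barcodes not called. No single partner took many of them. The median ATAC-poor cell shared 0.245% of its fragments with its closest partner barcode, and 1 of the 444 shared more than 5%. In the thinned comparator the median was 0.239%, and again 1 cell shared more than 5%.

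Accessibility of single genes was compared between the pooled ATAC-poor cells and the thinned comparator, as the share of fragments that overlapped the gene body or the 2000 bp upstream of it. Of 11042 protein-coding genes with at least 20 expected fragments, 82 (0.743%) had a share more than 1.5-fold higher in the ATAC-poor cells and 300 (2.72%) a share more than 1.5-fold lower. The median log2 ratio over all genes was -0.004. The fold limit is crossed more easily at low counts, and among the 5067 genes with at least 50 expected fragments it was passed by 6 and 27. Exact 95% intervals of the ratio excluded equality for 329 genes in the upward direction and 283 in the downward direction, together 5.54% of genes, where intervals at this level leave out a true value of equality for up to 5% by construction. Of the 5067 better covered genes, 207 and 129 had such intervals, together 6.63%. In promoter windows 256 of 6657 genes were higher and 107 lower by this measure, together 5.45%. Shares were taken over all nuclear fragments, of which the ATAC-poor cells had more at promoters, so these counts include that overall difference. The median log2 ratio over promoter windows was 0.03, and 55.6% of these genes were higher.

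The promoters with the most fragments in the ATAC-poor cells were also well covered in the comparator. The promoter of *Zbtb20*, a zinc finger repressor, took 2.94 fragments per 10000 in the ATAC-poor cells and 2.91 in the thinned comparator, and a fragment was seen there in 39.0% and 37.6% of cells. *Pknox1*, a homeodomain partner of Pbx proteins, took 2.68 and 2.31 per 10000, *Dazap2* 2.60 and 2.33, *Mepce*, which encodes an RNA-capping methyltransferase, 2.52 and 1.86, and *Sp1*, a factor that binds GC boxes, 2.46 and 2.17. Of these 5 the interval of the log2 ratio excluded 0 for *Mepce* alone (0.44, 0.22 to 0.66). The 5 promoters were picked for their fragments in the ATAC-poor cells, which favors ratios above 0, so the values are a description. The sequences around the RefSeq starts of *Dazap2* (chr15:100615412-100615711) and *Sp1* (chr15:102406066-102406365), both on the plus strand of GRCm38.p6, show what kind of DNA was recovered even from cells with few fragments. They reach from 250 bases before the start to 50 after it, and capitals mark the GC box GGGCGG and the CCAAT box on either strand.
Dazap2: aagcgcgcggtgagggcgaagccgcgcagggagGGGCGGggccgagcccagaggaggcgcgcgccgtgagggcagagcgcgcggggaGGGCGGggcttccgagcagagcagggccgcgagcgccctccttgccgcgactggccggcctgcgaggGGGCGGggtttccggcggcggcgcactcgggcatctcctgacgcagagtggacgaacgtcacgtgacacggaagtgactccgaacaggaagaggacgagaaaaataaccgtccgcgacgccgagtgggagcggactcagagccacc
Sp1: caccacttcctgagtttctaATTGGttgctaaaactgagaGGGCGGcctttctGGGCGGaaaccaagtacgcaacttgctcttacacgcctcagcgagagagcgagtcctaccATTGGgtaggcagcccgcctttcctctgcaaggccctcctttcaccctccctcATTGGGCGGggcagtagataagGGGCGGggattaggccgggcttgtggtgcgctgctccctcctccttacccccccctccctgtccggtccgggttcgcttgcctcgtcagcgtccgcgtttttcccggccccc
The *Dazap2* stretch has 72.3% G and C and holds the GC box 3 times, with no CCAAT box. The *Sp1* stretch has 61.7% G and C and holds the GC box 4 times and the CCAAT box 3 times, in one place sharing letters. Among 32619 promoters of this length in RefSeq, 35.9% hold at least 1 GC box of these letters and 37.6% at least 1 CCAAT box. The printed stretches were overlapped by 112 and 69 fragments of the ATAC-poor cells and by 532 and 363 of the thinned comparator.

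The largest ratios among genes with at least 50 expected fragments were modest and rested on many cells. *Ccdc134* (chr15:82127922-82142203), a gene for a secreted coiled-coil protein, had 87 fragments in 72 ATAC-poor cells, 1.03 per 10000 against 0.596 (log2 ratio 0.80, 0.43 to 1.15). *Zfp467*, a zinc finger gene, had 2.01 against 1.33 per 10000 (log2 0.60, 0.34 to 0.84), and its promoter window 0.476 against 0.194. *Tia1*, which encodes an RNA-binding protein of stress granules, *Fzd5*, a Wnt receptor, and *Camkk1*, a kinase that activates calmodulin-dependent kinases, had log2 ratios of 0.57, 0.57 and 0.61. *Dhx35*, *Mtmr10*, *Uaca* and *Tnip3* had log2 ratios of 0.56 to 0.65. The remaining gene of the highest 10 was *Ptprd*, which belongs to the long neuronal genes described further on.

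At the other end, *Slbp*, whose product binds the stem-loop of histone mRNAs, had 37 fragments, 0.440 per 10000 against 0.767 (log2 -0.80, -1.33 to -0.31). *Slc25a12*, a mitochondrial aspartate and glutamate carrier, *Dgkq*, a diacylglycerol kinase, and *Gosr2*, a Golgi SNARE, had log2 ratios of -0.75, -0.74 and -0.73. *Abtb2*, *Phf2* (a histone demethylase), *Plekhg5*, *Hltf* (a helicase-like factor), *Mboat7* and *Fam222a* had log2 ratios of -0.72 to -0.67. These 20 genes were picked for their ratios, so the values are a description.

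Lists of genes described which loci held the fragments. A member is called past 1.5-fold as above, where 0.743% of all tested genes were higher and 2.72% lower, so a count of 0 in a list of up to 15 tested genes is near the background and says nothing about the list. The 18 genes of HSC identity took 30.1 fragments per 10000 in the ATAC-poor cells and 29.9 in the thinned comparator (log2 ratio 0.01, -0.05 to 0.07). Over gene bodies barcodes not called took 24.1 and the cells poor in both RNA and ATAC 29.7, so this measure separates cells from background only weakly. None of the 15 tested members passed 1.5-fold in either direction, and their median log2 ratio was 0.02. *Mecom*, a transcription factor needed for HSC maintenance, took 380 fragments, 4.52 against 4.56 per 10000. *Prdm16*, a related regulator, took 3.92 against 3.75, *Meis1* 2.79 against 2.58, *Runx1* 3.00 against 3.29, *Erg* 2.05 against 2.28 and *Hlf* 1.26 against 1.42. The interval of the log2 ratio included 0 for each of these 6 genes. In promoter windows alone the list took 5.74 against 5.19 per 10000 (log2 0.15, 0.00 to 0.29), with 2.74 in barcodes not called.

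The genes of the sorting gate had few fragments. *Kit* had 77 in the ATAC-poor cells (0.916 against 1.04 per 10000), *Slamf1*, which encodes CD150, 23 (0.274 against 0.338), *Cd34* 8, *Cd48* 7 and *Ly6a*, which encodes Sca-1, 4. The list as a whole had a log2 ratio of -0.24 (-0.53 to 0.04). Genes the study ties to platelet-biased (PLT) or multi-lineage (MUL) HSCs had a list ratio of -0.05 (-0.17 to 0.08), with 0 of 10 tested members past 1.5-fold. The list pools genes of both subtypes, so opposite shifts would cancel and its ratio cannot show a difference in lineage bias. *Vwf*, the von Willebrand factor gene used as a reporter of platelet bias, took 1.33 against 1.41 per 10000. *P2rx7*, a purinergic receptor, took 0.714 against 0.956 (log2 -0.42, -0.83 to -0.03). The promoter window of *Itgb3*, which encodes the beta chain of the platelet fibrinogen receptor, took 0.297 against 0.152 (log2 0.97, 0.25 to 1.64), but the gene body with its upstream region took 0.868 against 0.803. *Plek2*, which encodes a pleckstrin-like protein, had 18 fragments in 15 cells (log2 1.14, 0.26 to 1.95) and lay under the minimum for the tested genes.

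Housekeeping and stress genes had ratios near 0. The 14 housekeeping genes took 13.9 against 13.8 per 10000 (log2 0.01, -0.08 to 0.10), and 0 of 14 tested members passed 1.5-fold. *Actb* had a fragment at its promoter in 27.0% of ATAC-poor cells and 23.1% of thinned comparator cells, and *Eef1a1*, a translation elongation factor, in 20.7% and 19.6%. Stress and immediate-early genes took 17.9 against 17.8 per 10000 (log2 0.01, -0.07 to 0.09). *Jun* took 1.52 against 1.46, *Fos* 0.630 against 0.700 and *Dusp1* 2.31 against 2.30. *Hspa1b*, a heat-shock gene with a near-identical copy beside it, had only 6 fragments, 0.071 against 0.188 per 10000 (log2 -1.40, -2.88 to -0.22), under the minimum for the tested genes.

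The 14 proliferation genes took 8.55 against 7.79 per 10000 (log2 0.13, 0.02 to 0.25), one of 2 list intervals over gene bodies that excluded 0. Of its 12 tested members 0 passed 1.5-fold, and their median log2 ratio was 0.23. *Mki67*, a marker of cycling cells, took 0.809 against 0.617 (log2 0.39, -0.01 to 0.77), *Mcm4*, of the replicative helicase, 0.940 against 0.738 (log2 0.35, -0.02 to 0.70), and *Cdk1* 0.297 against 0.433 (log2 -0.54, -1.20 to 0.06). The interval included 0 with at least 4000 UMIs in both groups (0.06, -0.09 to 0.21) and in promoter windows (0.12, -0.01 to 0.24).

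For the markers of other blood cells, the list intervals all included 0. The megakaryocyte and platelet list had a log2 ratio of -0.14 (-0.35 to 0.07), the erythroid list 0.06 (-0.19 to 0.30), the granulocyte and monocyte list -0.20 (-0.47 to 0.06), the B cell list 0.02 (-0.22 to 0.25) and the T and NK cell list 0.08 (-0.13 to 0.29). In these 5 lists 5, 2, 3, 2 and 4 members could be tested, and 0 passed 1.5-fold. The lists held 221, 165, 139, 179 and 226 fragments of the ATAC-poor cells in the same order. *S100a8*, *S100a9*, *Hba-a1*, *Rag1*, *Nkg7* and *Gzmb*, which mark neutrophils, red cells and lymphocytes, had 0 fragments in the ATAC-poor cells, but with 0 to 8 in the larger thinned comparator few or none were to be seen at this depth. The stromal and endothelial list was lower in the ATAC-poor cells, at 3.44 against 3.93 per 10000 (log2 -0.19, -0.38 to -0.01). Its interval included 0 without thinning (-0.10, -0.28 to 0.07), with at most 2000 fragments in peaks (-0.13, -0.38 to 0.12), without the diffuse cells (-0.15, -0.34 to 0.03) and in promoter windows (-0.17, -0.57 to 0.21). Of its 5 tested members *Kdr*, which encodes a VEGF receptor, passed 1.5-fold, with 19 fragments and 0.226 against 0.471 per 10000 (log2 -1.06, -1.82 to -0.38), where 2.72% of all tested genes were lower by that much. *Pecam1* took 1.13 against 1.15 and *Col1a1* 0.440 against 0.427.

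**Figure D5:**
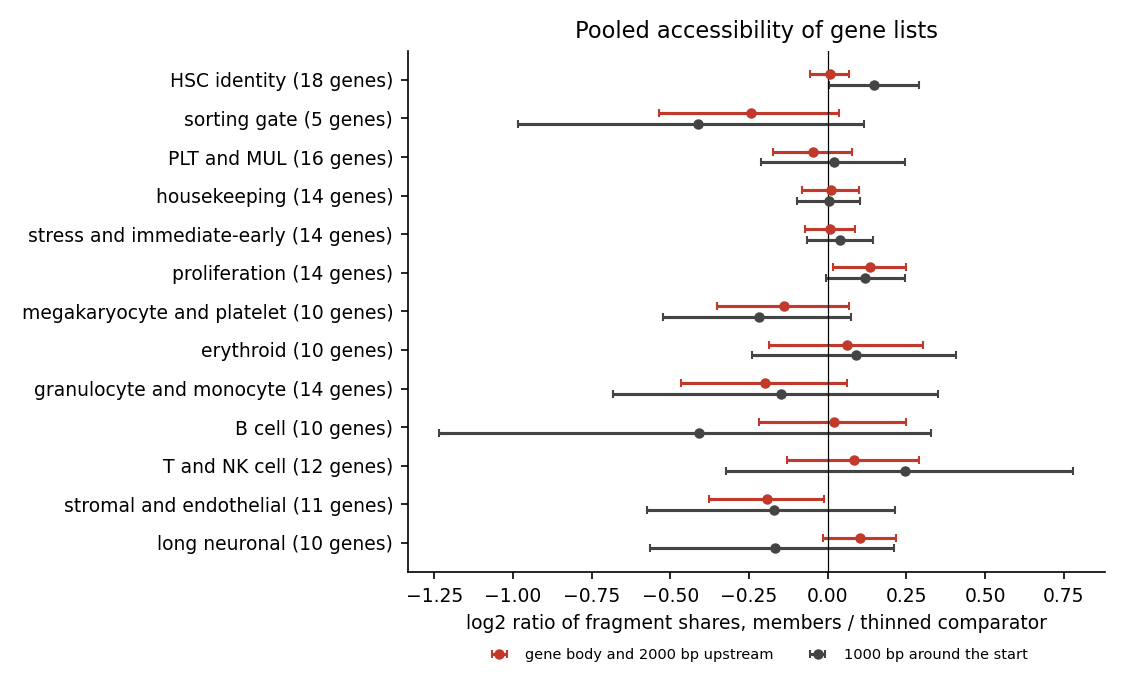
Log2 ratio of the fragment share of each gene list, ATAC-poor cells over thinned comparator, for gene bodies with 2000 bp upstream (red) and for windows of 1000 bp around the start (dark gray), with exact 95% counting intervals. Over gene bodies the intervals lie off 0 for the proliferation list (0.13) and the stromal and endothelial list (-0.19), neither of which holds over start windows, and over start windows for the HSC identity list (0.15).

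Long neuronal genes, which are largely silent in blood and span very large closed domains, gauge fragments that fall without regard to open sites. In the ATAC-poor cells the 10 genes took 8.55 fragments per 10000, against 7.97 in the thinned comparator (log2 0.10, -0.02 to 0.22), 21.7 in the cells poor in both RNA and ATAC and 26.3 in barcodes not called. The 21.7 pools 41.1 in 39 diffuse cells with 9.49 (8.36 to 10.7) in the other 166. *Ptprd*, a receptor phosphatase, passed 1.5-fold with 94 fragments (log2 0.79, 0.44 to 1.13), as did *Lrp1b* (0.62, 0.06 to 1.15) and *Nrg3* (0.59, 0.05 to 1.11), which makes 3 of 10 where 0.743% of all tested genes were higher by that much. The 9 diffuse cells held 149 of the 719 fragments of the list, a rate of 33.8 per 10000 (28.6 to 39.7), and the other 435 ATAC-poor cells had a rate of 7.15 (6.58 to 7.77). Because the diffuse cells were chosen for fragments outside peaks, leaving them out lowers this rate by construction, and the values without them are a description. Without diffuse cells in both groups the list ratio was -0.13 (-0.26 to 0.00, an interval that includes 0). The ratios of *Lrp1b* and *Nrg3* changed sign, to -0.13 (-0.89 to 0.56) and -0.02 (-0.71 to 0.62), and that of *Ptprd* was 0.45 (0.06 to 0.82), no longer past 1.5-fold. The comparator cells that were not diffuse had a rate of 7.82 per 10000 (7.72 to 7.92), an interval that overlaps that of the other 435 ATAC-poor cells.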

How the data were processed

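ATAC and RNA sequences had been aligned to mm10 (GRCm38) by Cell Ranger ARC 2.0.2, which also made the cell calls. The authors deposited raw counts per barcode (RNA reads, UMIs, genes, ATAC read pairs, fragments), the place of every unique ATAC fragment, and how many read pairs it rested on. None of these counts was normalized. No source used here says whether fragment ends were shifted for the transposase offset. The antibody-tag counts and the RNA counts per gene were not used here, so RNA is described by composition columns only.

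Groups were set by is-cell calls, UMIs (at least 3000) and fragments in peaks (at most or over 3000), so these values are descriptions. The members, gene lists and rules were chosen with earlier results of these data known. Doublets were left in, since no step for their removal is described. Nucleosome lengths followed the limits of the nucleosome signal in Signac. Starts were the principal transcript starts of GENCODE vM21 protein-coding genes or, without one, the 5′ end of the gene. Each comparator cell was thinned to the nuclear fragment number of a randomly assigned ATAC-poor cell (seed 1); 2 comparator cells were shallower than their number and kept all fragments. Thinning gives deep cells no extra weight, so thinned and unthinned values can differ. Fragments of overlapping genes counted for each gene. Expected fragments were the gene's share over all called cells times the total of the ATAC-poor cells. Named genes were those of the lists, the 10 highest and 10 lowest ratios among genes with at least 50 expected fragments and the 5 promoters with most fragments.

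Shares have exact binomial intervals, ratios exact conditional Poisson intervals, and differences of shares normal-approximation intervals, all at 95% and for counting error only. Total nuclear fragments were 840805 in the ATAC-poor cells and 30640328 in the comparator. Steps were tested on simulated counts. Promoter sequences are from RefSeq on GRCm38.p6, and 2 of the 5 promoters with most fragments had an entry within 1000 bp of the start used here. Versions were Python 3.11.15, scipy 1.17.1, numpy 2.4.6, matplotlib 3.10.9 and pandas 2.3.3.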

Additional observations from a re-analysis of the deposited data

Results flagged for a closer look

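Outside the called cells, 40 barcodes had at least 3000 UMIs but were not called as cells, and 12 of them carried an exclusion mark in the barcode table. They entered no comparison. Their median was 73 ATAC fragments, below the 98 of the shallowest ATAC-poor cell, and 31 of the 40 had at most 3000 fragments in peaks. How far the joint call of cells sets the size of the ATAC-poor group was not tested.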

How the results depend on the processing

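Among the group differences and list ratios, no alternative reversed one whose counting interval excluded 0, but some ended or made such a call. Of single genes, *Lrp1b* and *Nrg3* turned from 0.62 and 0.59 to -0.13 and -0.02 without diffuse cells. The interval of the stromal and endothelial list included 0 in 4 settings (no thinning, at most 2000 fragments, no diffuse cells, promoter windows) and that of the proliferation list in 2 (at least 4000 UMIs, promoter windows), while that of the sorting gate list excluded 0 without thinning (-0.27, -0.55 to -0.01). Of 135 alternative values 98 stayed within the counting interval of the reported one, or within 1.5 times for a count. Differences below are ATAC-poor cells minus comparator. With at most 2000 fragments in peaks the ATAC-poor share was 11.3%, and the differences were -0.194 points for mitochondrial pairs, 0.094 for duplicates, 1.48 for promoter share, 0.682 for shared fragments, 0.353 for GC and -0.051 for nucleosome signal. With at least 4000 UMIs they were 0.677 for intronic UMIs, 0.062 for intergenic reads, -0.334 for mitochondrial pairs and 1.43 for promoter share. With medians over cells they were 0.179 for intronic UMIs, 0.195 for intergenic reads and -0.087 for mitochondrial pairs, and with weighted UMI bins 0.294 for intronic UMIs. Without UMI matching the difference in genes was -8.62. Without thinning it was 1.63 for promoter share, 0.989 for shared fragments, -0.048 for nucleosome signal and 0.422 for GC, and 46 genes lay past 1.5-fold higher. Among fragments with at least 2 read pairs the nucleosome signal differed by -0.043. With 50 expected fragments, 6 and 27 genes passed 1.5-fold, and 2 and 15 passed 2-fold at 20 expected; in promoter windows 154 were lower, and the list ratios were 0.15 (HSC identity), -0.41 (B cell) and -0.17 (long neuronal).

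The following were chosen after seeing the data. Without diffuse cells the differences were 1.94 for promoter share, 0.978 for shared fragments, -0.049 for nucleosome signal and 0.504 for GC, the long neuronal ratio was -0.13, and ATAC-poor cells with at most 1000 fragments in peaks exceeded the deeper ones in promoter share by 0.961 in place of 1.83 points. Without cells over 5% mitochondrial pairs, the ATAC-poor cells differed from the comparator in mitochondrial pairs by -0.125. A second random assignment of depths to comparator cells changed none of the values it was run on beyond their intervals. With it, however, the interval of the long neuronal list excluded 0 (0.13, 0.02 to 0.25). The random order of fragments within each cell was kept, so both thinnings share fragments by construction. A new draw of fragments was not tested. The cause of these shifts was not tested. With 1 preparation, no value has an error between animals. No paired analysis was possible because the labels give 1 sample for each library and no replicate numbers.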
